A study of Tupaia belangeri with 6 samples.

Results

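Microglia in which no GPNMB transcript was counted were taken from single-nucleus RNA-seq of the hippocampus of tree shrews (TSs, Tupaia belangeri). A nucleus was included if it had at least 200 genes, a sum of 3 or more UMIs (unique molecular identifiers, 1 per counted RNA molecule) over CSF1R, PTPRC, APBB1IP and P2RY12, no UMI of GPNMB, and no UMI of MOG, PDGFRA, AQP4, GAD1 or NEUROD6. This gave 715 of 37603 nuclei (1.90%). The nuclei were thus chosen by the UMI counts of these 10 genes, whose levels are described and were not tested.

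Hippocampal nuclei were profiled from 3 TSs with Alzheimer's-like pathology (ALP) and 3 control TSs, with 1 library per animal, by 3′ droplet sequencing. The animals had aged naturally and carried no transgene or treatment, and they were assigned to the groups from tests of cognitive behaviour. ALP TSs are therefore a model of spontaneous decline with age, and the labels give neither the age nor the sex of each animal. The libraries held 8785, 3011 and 7969 nuclei in Control 1, 2 and 3 and 5091, 7151 and 5596 in ALP 1, 2 and 3, with 32679011, 19748976, 35898940, 20119934, 30520809 and 19182981 UMIs in that order.

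Microglia are the resident macrophages of the brain. They depend on signalling through the receptor CSF1R, survey the tissue through purinergic and fractalkine receptors such as P2RY12 and CX3CR1, and take up debris and synapses that complement C1q has tagged. Around amyloid deposits, microglia of many species lower these surveillance genes and raise lysosomal and lipid-handling genes, among which GPNMB, a transmembrane glycoprotein of lysosomes and phagosomes, is a marker.

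The label was checked on genes that the rule did not use. BLNK, a B-cell linker adaptor that is also read in microglia, had a UMI in 60.8% of the nuclei. It had one in 1.16% of oligodendrocyte nuclei (2 or more UMIs of MOG and none of the rule's other genes, except that GPNMB was not used) and in 3.38% of all other nuclei. INPP5D, an inositol phosphatase of immune cells, was detected in 51.9%, and CX3CR1, the fractalkine receptor, in 30.8%, against 0.365% of oligodendrocyte nuclei for CX3CR1. Oligodendrocyte nuclei were the deeper class, with a median of 1593.5 UMIs against 1122. As UMIs per 1000000 (CPM), CX3CR1 was 49.6-fold, INPP5D 46.5-fold and BLNK 39.4-fold above all other nuclei. Of 20 microglia markers outside the rule, 19 were in the annotation and 17 were detected. Their sum was 33.1 UMIs per 10000, against 1.55 in all other nuclei, and by library it was 43.7, 10.6 and 21.8 in Control 1, 2 and 3 and 45.4, 40.6 and 34.0 in ALP 1, 2 and 3. It was thus lowest in Control 2 and Control 3. TMEM119 and ADGRE1 were in the annotation but were listed at 0, with 0 and 0.0064 CPM in all other nuclei.

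Further genes with a large excess over all other nuclei are given with their known roles. They included IKZF1 (45.4-fold), a lymphoid and myeloid transcription factor, TAL1 (42.9-fold), a haematopoietic transcription factor, and NCKAP1L (43.6-fold), a haematopoietic subunit of the WAVE complex that drives actin branching. Receptors and adaptors followed, with CSF2RA (44.7-fold), the alpha chain of the GM-CSF receptor, P2RY6 (43.0-fold), a UDP receptor of phagocytosis, RGS18 (46.3-fold), SAMSN1 (45.2-fold), ARHGAP25 (41.2-fold) and LCP2 (38.9-fold). The amino acid transporter SLC7A7 was at 38.9-fold and hexokinase HK2 at 40.9-fold. TIMD4, a phosphatidylserine receptor of tissue macrophages, was 40.3-fold higher. CD2, which is better known from T cells, was 38.7-fold higher and had a UMI in 35.8% of the nuclei. In all, 120 named genes with a UMI in at least 10% of the nuclei had a 10-fold or larger excess. Among the genes that chose the nuclei, PTPRC, the leukocyte phosphatase CD45, was detected in 80.8%, APBB1IP, an adaptor of integrin activation, in 80.1%, CSF1R in 48.7% and P2RY12 in 31.6%.

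The threshold of 3 UMIs lay on a gradient. The 244 nuclei with a sum of exactly 3 had BLNK in 56.1%, INPP5D in 49.2% and SNAP25, a synaptic vesicle fusion protein of neurons, in 23.0%. The 395 nuclei just outside, with a sum of 2, had BLNK in 40.3%, INPP5D in 32.2% and SNAP25 in 46.3%. The 280 nuclei with a sum of 5 or more had BLNK in 65.4%. A further 522 nuclei with a sum of 3 or more were left out because they held a UMI of MOG, PDGFRA, AQP4, GAD1 or NEUROD6.

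Marker content differed with depth. Most nuclei, 467 of 715, had more than 500 and up to 1000 genes, and in these the microglia markers outside the rule made up 73.5 UMIs per 10000 and 12 neuronal markers 10.7. In the 77 nuclei with more than 2500 genes the order was the other way round, with 6.67 UMIs per 10000 for the microglia markers and 32.0 for the neuronal markers. SNAP25 was detected in 94.8% of these deep nuclei and in 13.3% of those with more than 500 and up to 1000 genes, and BLNK in 45.5% and 67.7%. The deep nuclei were 10.8% of the nuclei and gave 48.9% of their UMIs. The deep nuclei thus carried transcripts of neurons beside those of microglia. The 49 nuclei with 500 genes or fewer also stood apart. Their microglia markers outside the rule were at 71.1 UMIs per 10000, but BLNK was detected in 26.5% of them at a median of 656 UMIs, and markers of lymphocytes and blood leukocytes were at 11.8 per 10000, against 4.73 in nuclei with more than 500 and up to 1000 genes. Of these shallow nuclei 7, 0 and 1 came from Control 1, 2 and 3 and 20, 4 and 17 from ALP 1, 2 and 3. The comparison of ALP and control TSs was therefore also made in the 583 nuclei of at most 1500 genes, in the 534 of these with more than 500 genes, and after every nucleus had been thinned at random to at most 2000 UMIs.

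**Figure D1:**
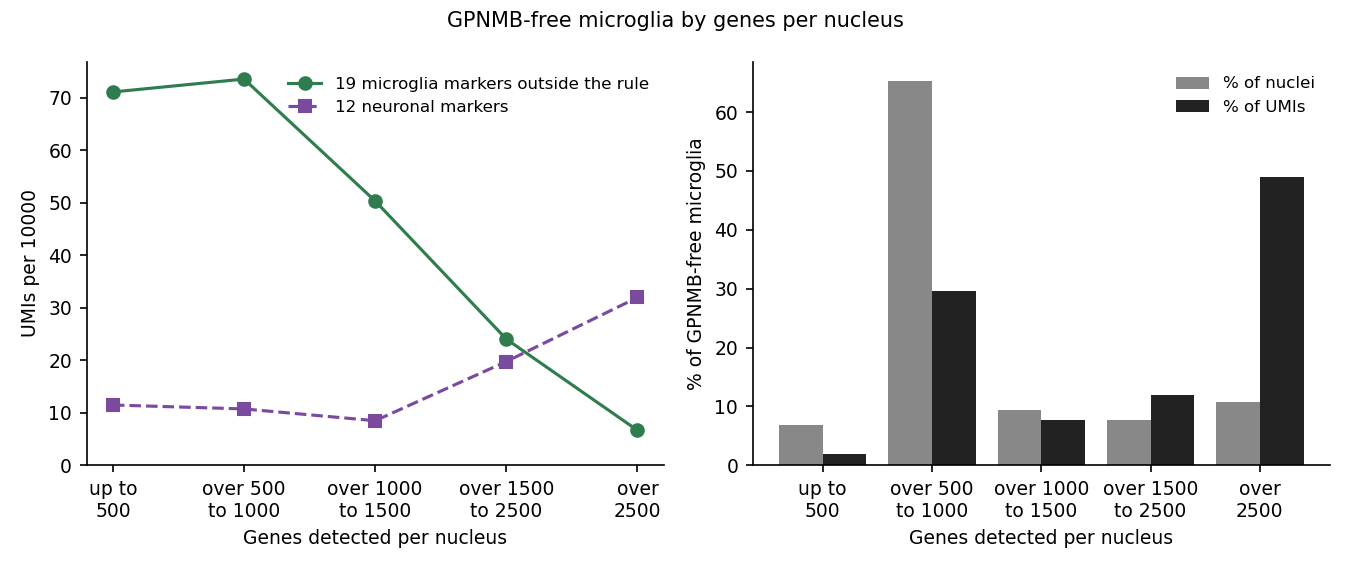
Marker content and depth of the 715 nuclei, binned by the number of genes per nucleus. The left panel plots UMIs per 10000 for 19 microglia markers outside the rule and 12 neuronal markers, and the right panel the percentage of nuclei and of UMIs in each bin; the microglia markers were at 73.5 per 10000 in nuclei with more than 500 and up to 1000 genes and at 6.67 in those with more than 2500, which held 48.9% of the UMIs.

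The share of microglia without GPNMB transcripts was compared between ALP and control TSs as a measure of their abundance. It was 3.16% in Control 1 (278 nuclei; 95% Wilson interval 2.82 to 3.55%), 0.797% in Control 2 (24 nuclei; 0.536 to 1.18%) and 1.71% in Control 3 (136 nuclei; 1.44 to 2.02%). It was 1.34% in ALP 1 (68 nuclei; 1.06 to 1.69%), 1.65% in ALP 2 (118 nuclei; 1.38 to 1.97%) and 1.63% in ALP 3 (91 nuclei; 1.33 to 1.99%). The control libraries held both the highest and the lowest share, and all ALP values lay between them. The control mean was 1.89% ± 1.19 and the ALP mean 1.54% ± 0.175 (SD over 3 animals each). Their difference of -0.352 percentage points was within the spread between animals (two-sided exact permutation test, p = 0.7, where 3 against 3 cannot go below 0.1). Without Control 1 the difference was 0.285 points in the other direction. The intervals cover counting error only.

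**Figure D2:**
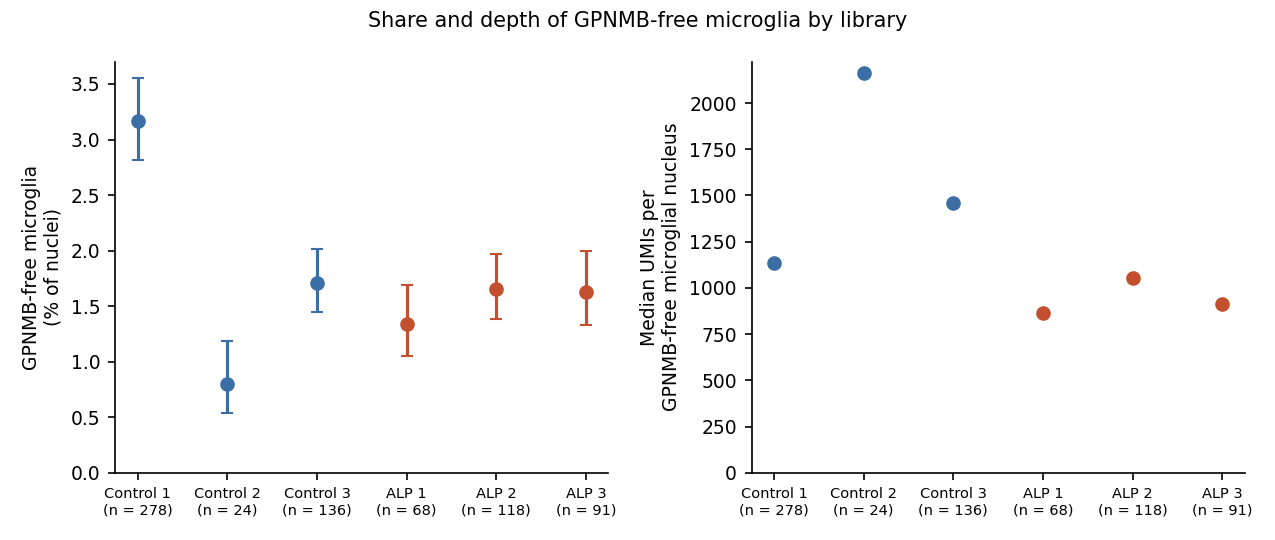
Share of microglia without GPNMB transcripts among all nuclei, in percent with the 95% Wilson interval, and median UMIs per such nucleus, with 1 point per library. Control 1 was highest at 3.16% and Control 2 lowest at 0.797%, with the ALP libraries at 1.34 to 1.65%; the ALP nuclei were shallower, at 865 to 1055.5 UMIs against 1133.5 to 2160.

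Depth differed between the groups. The median nucleus had 1133.5, 2160 and 1458 UMIs in Control 1, 2 and 3 and 865, 1055.5 and 914 in ALP 1, 2 and 3, so that every ALP library was shallower than every control library. Control 2 stood apart, since 6 of its 24 nuclei had more than 2500 genes and gave 75.1% of its 143327 UMIs. In Control 3 such nuclei gave 64.3% of the UMIs, in Control 1 35.4%, and in ALP 1, 2 and 3 25.5, 38.9 and 51.4%. No cell barcode of these nuclei was shared between libraries.

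Microglia with a GPNMB UMI give the denominator for these nuclei. Nuclei that met the same rule but had a GPNMB UMI numbered 5, 3 and 6 in Control 1, 2 and 3 and 8, 22 and 10 in ALP 1, 2 and 3. They were 1.77, 11.1 and 4.23% of microglia in control TSs and 10.5, 15.7 and 9.90% with ALP, so that Control 2, with 3 of 27 nuclei, overlapped the ALP range. A GPNMB UMI was found in 0.332% of oligodendrocyte nuclei. Because the GPNMB count chose the nuclei, these values are a description.

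The transcriptomes of ALP and control microglia without GPNMB transcripts were compared on UMIs summed per library, so that the animal was the replicate. Of 3988 features with enough counts, none was called at an adjusted p under 0.05 and an absolute log2 fold change above 0.25 (0%; edgeR's quasi-likelihood test with Benjamini-Hochberg adjustment). At an unadjusted p under 0.05, 177 features (4.44%) were higher and 158 (3.96%) lower in ALP TSs, and DESeq2 called 12, of which 8 were higher. When nuclei were thinned to at most 2000 UMIs, 8 of 2601 features (0.308%) were called, all of them higher in ALP TSs. Restricted to nuclei of at most 1500 genes, 12 of 1895 features (0.633%) were called, with 9 (0.475%) higher, among them all 8 of the thinned calls, and 3 (0.158%) lower. In the 534 nuclei with more than 500 and up to 1500 genes, 7 of 1739 features (0.403%) were called, all of them higher and all among the 8 thinned calls, while LAPTM5 had a log2 fold change of 1.68 (adjusted p = 0.0702, edgeR). In those nuclei the microglia markers outside the rule were at 70.5, 53.7 and 64.0 UMIs per 10000 in control TSs and at 72.9, 74.8 and 62.0 with ALP, so that the groups overlapped. In all 715 nuclei they were lowest in Control 2 and Control 3, as given above, and their part in the higher values was not tested. In each of these sets of calls, some features passed the filter on low counts through 1 group alone, as counted below. Levels below are CPM with TMM scaling in the sums of all UMIs unless stated, and log2 fold changes are ALP against control.

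The called genes are taken by their known roles, which were not tested as groups. C1QA, a chain of the complement recognition protein C1q, was at 87.7, 19 and 51.0 CPM in Control 1, 2 and 3 and at 205, 216 and 208 CPM in ALP 1, 2 and 3. The groups did not overlap, and the ALP libraries differed little from each other. Its log2 fold change was 1.80 ± 0.39 (SE; adjusted p = 0.264, edgeR), with 1.66 after thinning (adjusted p = 0.0283) and 1.66 in nuclei of at most 1500 genes (adjusted p = 0.0116). AIF1, which encodes the actin-bundling protein IBA1 used to stain microglia, was at 103, 57.1 and 69.7 CPM in control TSs and at 289, 279 and 277 CPM with ALP. Every ALP library was above every control library, with a log2 fold change of 1.80 ± 0.30 (adjusted p = 0.129, edgeR), of 1.64 after thinning (adjusted p = 0.0247) and of 1.61 in nuclei of at most 1500 genes (adjusted p = 0.00929).

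Products of CTSD and LAPTM5 act in lysosomes. CTSD, the aspartic protease cathepsin D, was at 156, 95.1 and 53.7 CPM in control TSs and at 493, 326 and 416 CPM with ALP, without overlap. The log2 fold change was 1.97 ± 0.39 (adjusted p = 0.182, edgeR), 1.87 after thinning (adjusted p = 0.0247) and 1.86 in nuclei of at most 1500 genes (adjusted p = 0.00535). LAPTM5, a lysosomal membrane protein of haematopoietic cells, was at 55.6, 47.6 and 26.8 CPM in control TSs and at 241, 142 and 173 CPM with ALP, again without overlap. Its log2 fold change was 2.06 ± 0.38 (adjusted p = 0.182, edgeR), 1.99 after thinning (adjusted p = 0.0257) and 1.82 in nuclei of at most 1500 genes (adjusted p = 0.0215).

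TOMM40, a channel subunit of the mitochondrial import complex, was at 1783, 923 and 1312 CPM in control TSs and at 4367, 4260 and 5567 CPM with ALP. The lowest ALP library was above the highest control library, with a log2 fold change of 1.81 ± 0.34 (adjusted p = 0.182, edgeR), of 1.69 after thinning (adjusted p = 0.0247) and of 1.57 in nuclei of at most 1500 genes (adjusted p = 0.00375). TOMM40 had 3396 UMIs in the 715 nuclei, 6.49-fold above all other nuclei as CPM. APOE, the adjacent gene in the RefSeq order, was listed at 0 UMIs there and at 3 UMIs in all nuclei together. Which transcripts were counted as TOMM40 was not tested.

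CBLN4, a secreted synaptic organizer of the cerebellin family, was also called after thinning. It was at 6.42, 28.5 and 0 CPM in Control 1, 2 and 3 (3, 3 and 0 UMIs) and at 180, 94.7 and 166 CPM in ALP 1, 2 and 3 (15, 18 and 24 UMIs). The log2 fold change was 4.30 ± 0.72 (adjusted p = 0.129, edgeR), 4.27 after thinning (adjusted p = 0.0221) and 4.15 in nuclei of at most 1500 genes (adjusted p = 0.00375). The non-coding feature LINC-BNIP2-1 was at 15, 9.51 and 8.05 CPM in control TSs and at 108, 121 and 90.1 CPM with ALP (log2 fold change 3.16 ± 0.47; adjusted p = 0.129, edgeR). HMGB1li28, 1 of many near-copies of HMGB1 that can share reads, was at 79.1, 9.51 and 42.9 CPM in control TSs and at 241, 189 and 257 CPM with ALP (2.13 ± 0.44; adjusted p = 0.201, edgeR). Both were called after thinning, and in both the groups stood apart. Some features passed the filter on low counts (at least 48.2 CPM in 3 libraries in the sums of all UMIs) through 1 group alone, so that they were picked by the group in which they were high and had to differ. CBLN4 and LINC-BNIP2-1 passed through the ALP libraries alone in these sums and after thinning, LAPTM5 after thinning, and LINC-BNIP2-1 and HMGB1li28 in nuclei of at most 1500 genes. This held for 3 of the 8 calls after thinning and for 4 of the 12 in nuclei of at most 1500 genes. It also held for 2 of the 7 calls in nuclei with more than 500 and up to 1500 genes, LINC-BNIP2-1 and HMGB1li28. Of the 12 DESeq2 calls, 5 passed through 1 group alone, 2 through the ALP and 3 through the control libraries.

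**Figure D3:**
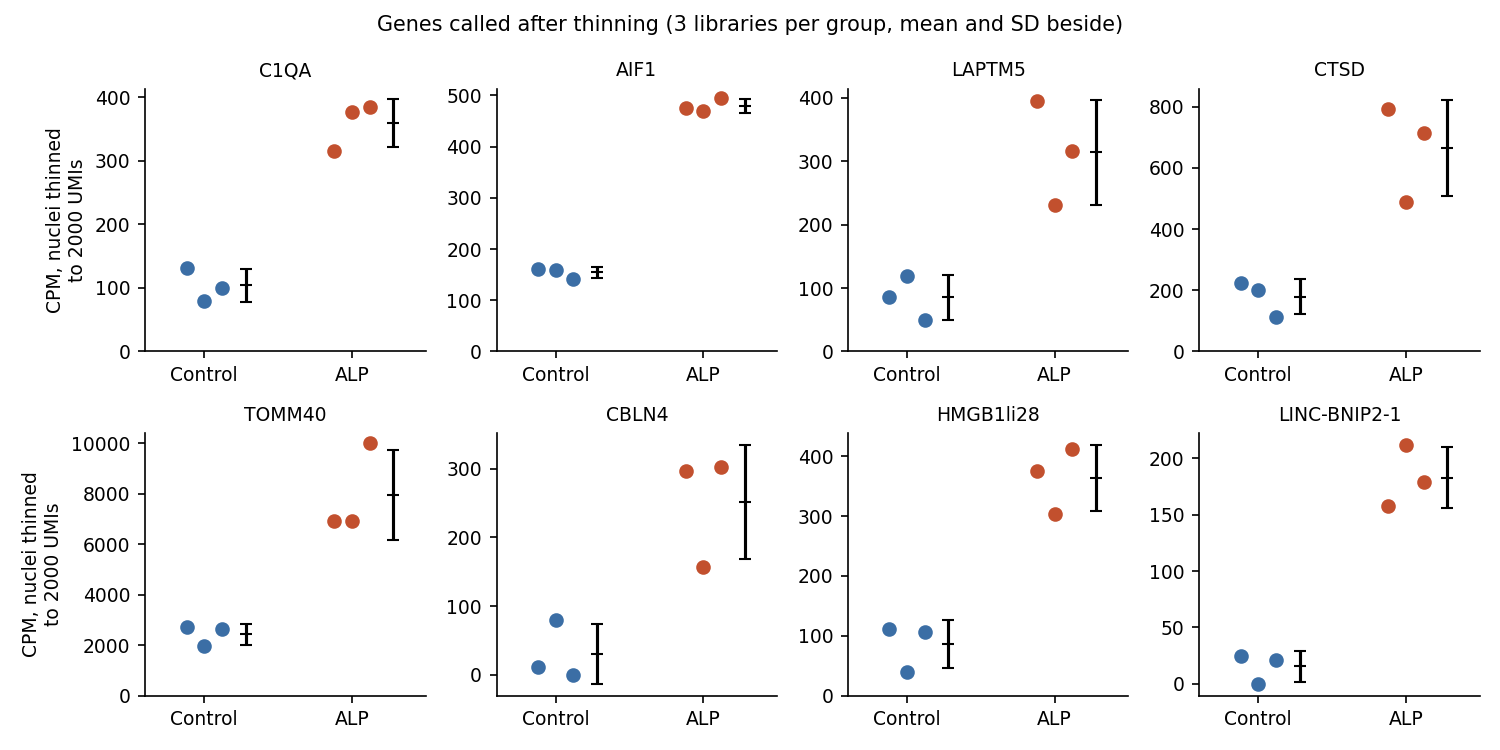
CPM of the 8 features called after thinning to at most 2000 UMIs per nucleus, with 1 point per library and the mean ± SD of each group (n = 3) beside the points. In every panel the 3 ALP libraries lie above the 3 control libraries, as for 215 of the 2601 features tested after thinning. CBLN4, LINC-BNIP2-1 and LAPTM5 passed the filter on low counts there through the ALP libraries alone and thus had to be higher. AIF1, for example, was at 142 to 161 CPM in control TSs and at 470 to 495 CPM with ALP.

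These calls depended on single libraries. All 8 were higher in ALP TSs in every alternative that tested them, but the alternatives reuse the same libraries. Where a feature passed the filter on low counts through the ALP libraries alone, as given above, it had to be higher. All 8 were called in the sums of all UMIs when Control 1 was left out, among 247 calls in all, of which 85 were higher. In the thinned sums, a second random draw called 7 of the 8 and another draw 5, C1QA in neither, and no feature was called without ALP 1 or without ALP 3. In nuclei of at most 1500 genes, leaving out any library left 4 to 17 features called, the fewest without Control 3. With 1 library left out of the sums of all UMIs, the log2 fold change of CBLN4 ran from 3.56 to 5.18. That of CTSD ran from 1.61 to 2.60 and that of HMGB1li28 from 1.89 to 2.73.

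Detection per nucleus, as the share expected to hold a UMI at 500 UMIs per nucleus, was also higher in ALP TSs for the 4 genes given here. C1QA was expected in 4.87, 3.29 and 3.71% of control and 11.8, 12.7 and 13.1% of ALP nuclei. AIF1 was at 7.13, 5.38 and 5.24% in control TSs and 14.7, 17.1 and 17.9% with ALP, and CTSD at 9.76, 7.40 and 4.05% against 27.0, 19.3 and 20.9%. For TOMM40 the shares were 56.3, 36.8 and 45.2% and 74.7, 73.5 and 76.4%. None of these ranges overlapped.

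The same shares were taken in other classes of nuclei, in which free RNA and a class's own transcripts cannot be told apart. In oligodendrocyte nuclei C1QA was at a mean of 0.174% in control and 0.183% in ALP TSs, and AIF1 at 0.196 and 0.139%. CTSD was at a mean of 1.74% in control and 4.81% in ALP oligodendrocyte nuclei, and 1.69 and 3.00% in astrocyte nuclei (2 or more UMIs of AQP4). TOMM40 was at 12.8 and 15.8% in oligodendrocyte nuclei and at 45.0 and 61.2% in astrocyte nuclei, so its higher level in ALP TSs was also present as a mean there. SNAP25, a neuronal transcript, was at 8.45 and 10.1% in the microglia and 6.14 and 5.41% in oligodendrocyte nuclei.

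**Figure D4:**
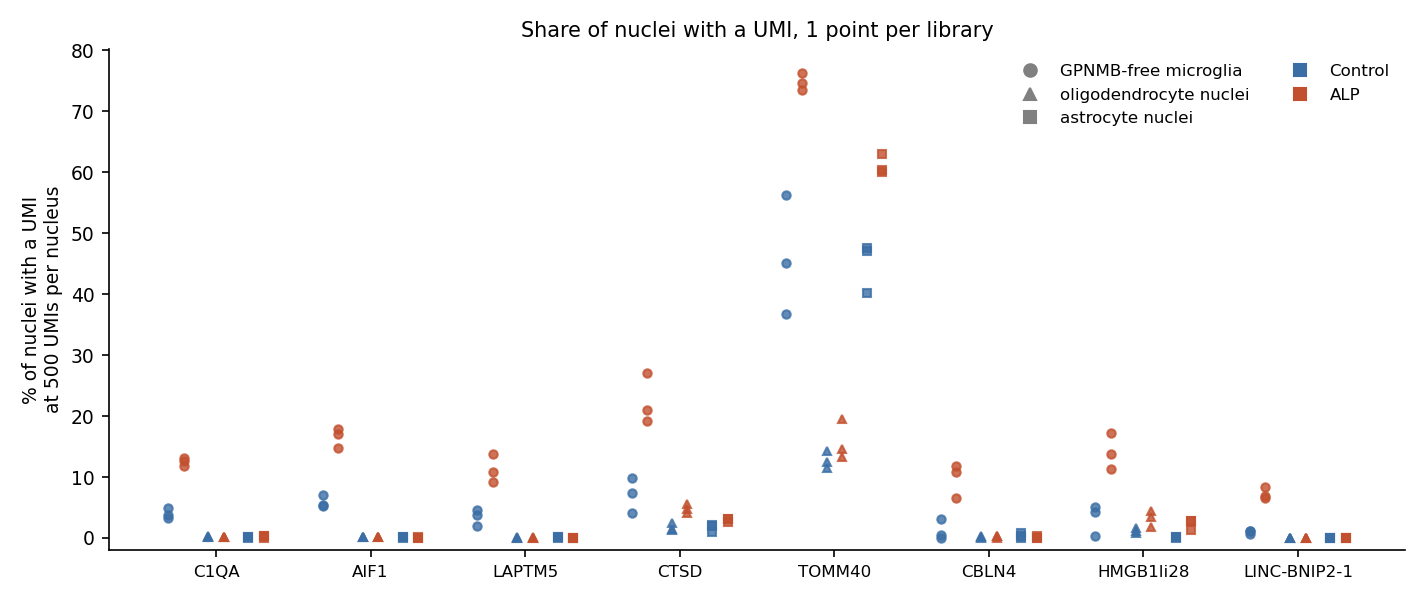
Share of nuclei expected to hold a UMI at 500 UMIs per nucleus, in percent, for 8 features in microglia without GPNMB transcripts, oligodendrocyte nuclei and astrocyte nuclei, with 1 point per library coloured by group. In the microglia the ALP libraries lie above the control libraries, as for C1QA at 11.8 to 13.1% against 3.29 to 4.87%.

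Other named genes with the lowest unadjusted p on the higher side missed the adjusted threshold. RNASET2, a lysosomal ribonuclease, was at 89.8, 95.1 and 77.8 CPM in control TSs and at 301, 216 and 215 CPM with ALP (log2 fold change 1.47 ± 0.29; adjusted p = 0.182, edgeR). CD53, a leukocyte tetraspanin, was at 265, 133 and 199 CPM in control TSs and at 577, 479 and 541 CPM with ALP (1.37 ± 0.30; adjusted p = 0.264, edgeR). The interferon-inducible gene IFI6 had a log2 fold change of 1.16, the deubiquitinase gene MPND of 1.07, and SKIL, a repressor of SMAD signalling, of 1.11. In all of these the ALP libraries lay above the control libraries, as for 8.45% of the tested features. The signal peptidase gene SEC11C (1.66) passed the filter on low counts through the ALP libraries alone.

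On the lower side, edgeR called no named gene in the sums of all UMIs, in the thinned sums or in nuclei of at most 1500 genes, and DESeq2 called ERBB4 in the sums of all UMIs. When Control 1 was left out of the sums of all UMIs, edgeR called ERBB4 lower (-1.70, adjusted p = 0.00213). SGCZ, SNTG1, TENM2, UNC5C and PTPRG were among the other genes called lower there. ERBB4, the neuregulin receptor, was at 1841, 2617 and 2422 CPM in Control 1, 2 and 3 and at 974, 673 and 700 CPM in ALP 1, 2 and 3. The groups did not overlap, with a log2 fold change of -1.56 ± 0.30 (adjusted p = 0.182, edgeR; adjusted p = 0.00238, DESeq2), but it was -0.46 in nuclei of at most 1500 genes. The others of lowest unadjusted p included PTPRD (-1.06), SDK1 (-1.19) and CDH20 (-1.09), which encode neural adhesion molecules, the serotonin transporter SLC6A4 (-1.24) and NDRG3 (-1.24). In nuclei of at most 1500 genes PTPRD was at -0.26 and SDK1 at -0.43, and CDH20 was at -0.32 after thinning. ANO4, a membrane protein of the anoctamin family, was at -1.46 and the sulfotransferase UST at -1.03. In each the ALP libraries lay below the control libraries, as for 6.34% of the tested features. The tyrosine sulfotransferase TPST1 (-2.34), the ubiquitin ligase LNX2 (-1.42), the kinase PDPK1 (-1.52) and the transcription factor MEIS2 (-1.47) passed the filter on low counts through the control libraries alone and thus had to be lower with ALP. Neuronal markers, described below, were highest in Control 2 and Control 3, and their part in these values was not tested.

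Features without a plain gene name were also among those of low unadjusted p on the lower side. LY6Hli1, a near-copy of LY6H, was at 473, 818 and 99.3 CPM in control TSs and at 24.1, 36.8 and 6.93 CPM with ALP (log2 fold change -4.21; not called by edgeR in the sums of all UMIs; adjusted p = 2.78e-05, DESeq2). The antisense feature ANK3-AS-1 was at -2.94 and MAPRE2-AS-1 at -2.32. Neither was called by edgeR with all libraries and the filter on low counts, both were called without that filter and without Control 1, and DESeq2 called ANK3-AS-1 (adjusted p = 0.0166). All 3 passed the filter on low counts through the control libraries alone. In nuclei of at most 1500 genes, ZEB2-AS-1 (-3.00), LORF2li206 (-2.85) and FCHSD2-AS-3 (-1.99) were called lower and NPDC1-AS-1 (1.29) higher (adjusted p under 0.05, edgeR), and none of the 4 was called in the 534 nuclei with more than 500 and up to 1500 genes. ZEB2-AS-1 and LORF2li206 passed the filter there through the control libraries alone. ZEB2-AS-1 was expected in a mean of 7.12% of control and 0.813% of ALP oligodendrocyte nuclei at 500 UMIs, LORF2li206 in 2.86 and 0.630%, and FCHSD2-AS-3 in 3.39 and 0.632% of astrocyte nuclei, so that their means were lower in ALP TSs in other classes too. Whether counting used strand was not given in the sources used here, so antisense features and the genes across from them cannot be told apart.

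Gene lists were read by how many tested members passed an unadjusted p under 0.05, beside 4.44% higher and 3.96% lower over all features, and by their median log2 fold change, beside -0.03 over all features. In the lists below, edgeR called no gene in the sums of all UMIs, while DESeq2 called CTSD (adjusted p = 0.0077) and LAPTM5 (adjusted p = 0.0182). When Control 1 was left out, edgeR also called C1QB (2.36), CD86 (1.96), FCGR1A (1.91), CTSC (1.73), CX3CR1 (1.63), TFEC (1.60), TYROBP (1.59), CD2 (1.42), SRGAP2 (1.29) and LRMDA (1.24) among the genes described below, all higher in ALP TSs. Over all features this fit called 247 of 4111, with 85 higher and the rest lower. The counts and medians cover the tested members, of which LAMP2 and NLRC5 passed the filter on low counts through the ALP libraries alone.

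Of the homeostatic microglia genes, 10 of 18 were tested, 1 was higher and none lower, with a median of 0.16, and of -0.13 in nuclei of at most 1500 genes. The higher gene was CX3CR1, at 212, 28.5 and 158 CPM in control TSs and at 493, 305 and 305 CPM with ALP (1.31 ± 0.47). All ALP libraries were above all control libraries. MERTK, a receptor for phagocytosis of apoptotic cells, was at 343 to 815 CPM in control TSs and at 565 to 626 CPM with ALP, TGFBR1 at 57.1 to 374 and 132 to 273 CPM, and CST3, the protease inhibitor cystatin C, at 365 to 1104 and 610 to 749 CPM. All 3 overlapped between the groups. Among markers outside the rule, BLNK was at 905, 209 and 418 CPM in control TSs and at 481, 621 and 409 CPM with ALP, a log2 fold change of -0.05 ± 0.45, which was 0.61 without Control 1. INPP5D had 0.52 ± 0.45, and LRMDA, a melanocyte differentiation gene that is read in microglia, 0.79 ± 0.39.

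Of 20 lineage transcription factors, 12 were tested, with a median of 0.36 and of -0.10 in nuclei of at most 1500 genes. TFEC, an MiT-family factor of macrophages, was higher at the unadjusted threshold (1.22), at 113, 28.5 and 77.8 CPM in control TSs and at 229, 184 and 166 CPM with ALP. MEF2C, a factor that restrains microglial activation, was at 3357, 1560 and 2114 CPM in control TSs and at 3994, 2987 and 3092 CPM with ALP (0.51 ± 0.35). ZEB2, a zinc finger repressor, was at 970 to 1608 and 1449 to 1488 CPM. MEF2A, of the same family as MEF2C, was at 457 to 1259.6 and 1054 to 1179 CPM. The groups overlapped in these 3 genes.

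Of 32 genes of disease-associated microglia, 9 were tested, with a median of 0.10. In nuclei of at most 1500 genes 6 were tested, with a median of 0.78 and all of them above 0. TYROBP, the adaptor of TREM2, was higher at the unadjusted threshold (1.00; 130, 85.6 and 45.6 CPM in control TSs, 180, 153 and 201 CPM with ALP), as was CTSD. APOE, CTSL, FABP5, AXL, CST7, CD63, CD68, CSF1 and MYO1E were listed at 0. In all other nuclei FABP5, AXL, CST7, CD63, CD68 and MYO1E were at 0 CPM too, APOE at 0.019, CTSL at 0.013 and CSF1 at 1.05 CPM. CADM1, an adhesion molecule, was at 201 to 1056 CPM in control TSs and at 263 to 553 CPM with ALP, B2M, the light chain of MHC class I, at 142 to 685 and 247 to 562 CPM, and cathepsin Z (CTSZ) at 85.6 to 291 and 215 to 445 CPM. The groups overlapped in these 3 genes.

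Of 31 lysosome and lipid genes, 8 were tested, with a median of 0.29 and of -0.05 in nuclei of at most 1500 genes. CTSC, the dipeptidyl peptidase cathepsin C, was at 654, 162 and 333 CPM in control TSs and at 1023, 657 and 991 CPM with ALP (1.16), and was higher at the unadjusted threshold. Its lowest ALP library lay just above its highest control library. LDLRAD4 (352 to 524 and 349 to 617 CPM) and the cholesterol transporter NPC1 (38.1 to 171 and 90.1 to 195 CPM) overlapped.

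Of 20 complement and Fc receptor genes, 6 were tested, and 3 of them were higher at the unadjusted threshold, with a median of 0.78. Beside C1QA these were C1QB, a second chain of C1q, and FCGR1A, the high-affinity IgG receptor (1.07). In nuclei of at most 1500 genes 7 were tested, with a median of 0.04. The same 3 genes were higher there at the unadjusted threshold, and CSF2RA was lower. C1QB was at 130, 57.1 and 34.9 CPM in control TSs and at 217, 184 and 250 CPM with ALP (1.46 ± 0.45), without overlap. ITGAM, the alpha chain of complement receptor 3, was at 133 to 438 CPM in control TSs and at 305 to 484 CPM with ALP, and the complement receptor CR1 at 150 to 295 and 60.1 to 195 CPM, with overlap. CSF2RA had -0.98 ± 0.54, and -1.61 in nuclei of at most 1500 genes. With 1 library left out of the sums of all UMIs, CSF2RA ran from -1.35 to -0.15. Of 4 tested genes of antigen presentation, with a median of 1.02, CD74, the invariant chain of MHC class II (1.10), and CD86, a T-cell co-stimulator (1.28), were higher at the unadjusted threshold. In nuclei of at most 1500 genes 3 were tested, with a median of 0.81. All 3 (CD74, B2M and CD86) were higher there at that threshold, as were 132 of all 1895 features. CD86 was at 186, 28.5 and 88.5 CPM in control TSs and at 277, 268 and 277 CPM with ALP, without overlap.

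Inflammatory lists had no gene at the unadjusted threshold. The interferon list had 4 tested genes and a median of 0.34, and of 0.13 in nuclei of at most 1500 genes. The cytokine and NF-kB list had 7 and a median of 0.42, and in nuclei of at most 1500 genes 5 and a median of -0.01. In the sums of all UMIs TLR4, the lipopolysaccharide receptor, was at 152 to 464 and 373 to 437 CPM, and the cytokine IL18 at 38.1 to 254 and 184 to 361 CPM. SP100, JAK2 and the cytokine IL6 were at 152 to 312, 57.1 to 175 and 95.1 to 164 CPM in the controls and at 277 to 312, 96.2 to 166 and 76.3 to 116 CPM in ALP TSs. The groups overlapped in all of these.

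Of genes in loci of Alzheimer's disease risk that are read in microglia, 14 were tested and none passed. Their median was 0.10, and -0.18 in nuclei of at most 1500 genes. PICALM, a clathrin adaptor, was at 333 to 753 CPM in control TSs and at 437 to 686 CPM with ALP, with overlap, and MEF2C and BLNK of this list are given above. The actin and motility list had 21 tested genes, a median of 0.27 and of -0.11 in nuclei of at most 1500 genes, and 1 gene, SRGAP2 (1.03), a regulator of membrane protrusion, higher at the unadjusted threshold. DOCK4 was at 1769.7 to 2791 CPM in control TSs and at 2369.9 to 2877 CPM with ALP, and ELMO1, which acts with DOCK proteins in engulfment, at 419 to 2025 and 1275 to 1352 CPM. DOCK10 was at 476 to 1221 and 984 to 1068 CPM, and all 3 overlapped. The kinase and phosphatase list had 15 tested genes, none at the threshold, and a median of 0.02, and of -0.08 in nuclei of at most 1500 genes. PLCL1 was at 514 to 1012 and 541 to 647 CPM and the phosphatase PTPRJ at 330 to 661 and 385 to 568 CPM. The iron list (3 tested, median 0.61) had NFE2L2, a factor of the oxidative stress response, at 28.5 to 153 and 83.2 to 108 CPM, and GPX4, which removes lipid peroxides, at 57.1 to 81.3 and 63.1 to 146 CPM. The immediate-early and stress list (3 tested, median -0.29) had ZFP36L1 at 400 to 900 and 621 to 1227 CPM, FKBP5 at 66.6 to 269 and 118 to 168 CPM, and HSPH1 at 110 to 180 and 60.1 to 126 CPM. None of these was at the threshold, and the groups overlapped in each.

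**Figure D5:**
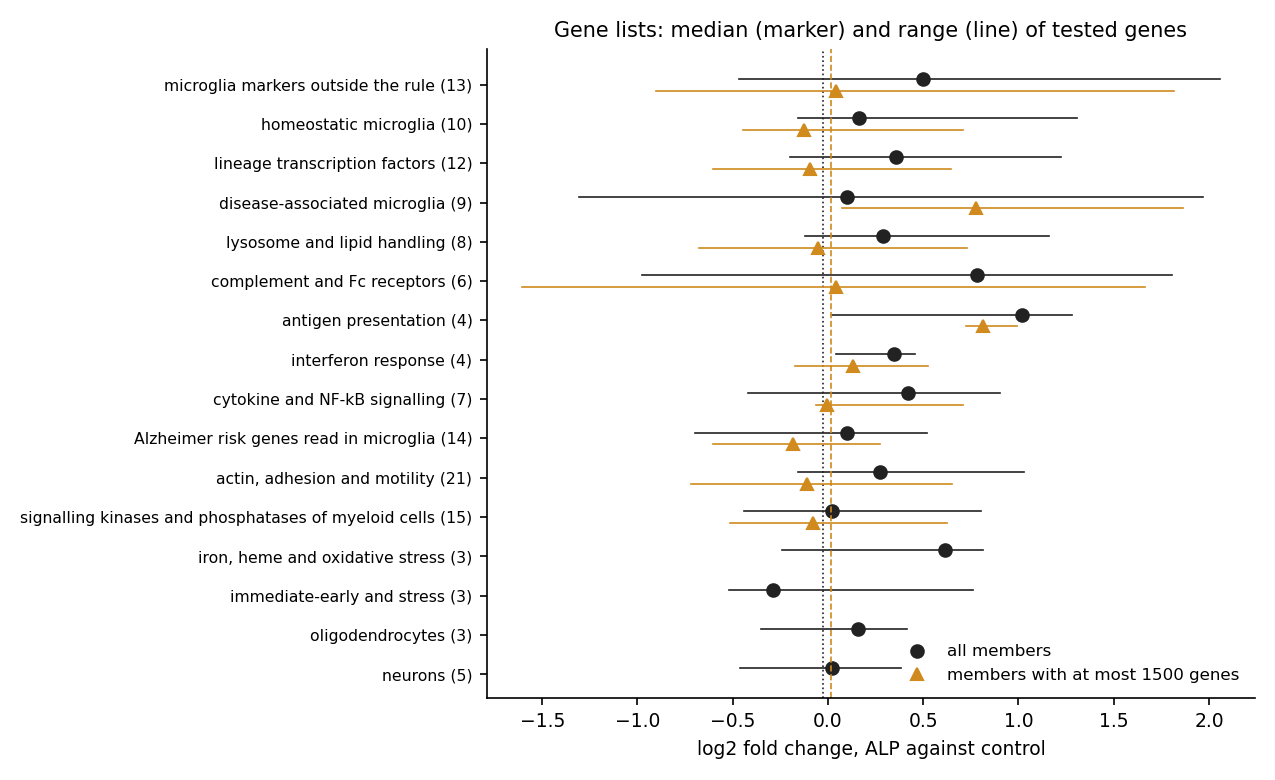
Median log2 fold change, ALP against control, of the tested genes of each list (marker) with their range (line), for all 715 nuclei (circles) and for the 583 nuclei of at most 1500 genes (triangles), for lists with 3 or more tested genes. Vertical lines give the median over all tested features (-0.03 and 0.02). The tested genes differ between the 2 sets of nuclei. The complement and Fc receptor list was at 0.78 (6 tested) and 0.04 (7 tested). The list of disease-associated microglia was at 0.10 (9 tested) and 0.78 (6 tested).

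Markers of other cell types were summed in the same nuclei, as UMIs per 10000. The 12 neuronal markers were at 15, 30.8 and 28.1 in Control 1, 2 and 3 and 16.7, 23.6 and 20.2 in ALP 1, 2 and 3, against 33.1 in all other nuclei. SYT1 gave the most. GAD1 and NEUROD6 were at 0 because the rule required it, but they are counted in the sum for all other nuclei. GAD2 was at 0 CPM in all other nuclei too. Neuronal markers thus stood highest in Control 2 and Control 3. The 10 vascular markers, of which none was at 0, were at 3.36, 4.47 and 1.69 in control TSs and 0.391, 0.532 and 1.43 with ALP. All ALP libraries were below all control libraries, and CLDN5, an endothelial tight-junction protein, gave the most with 85 UMIs. In nuclei with more than 500 and up to 1500 genes the vascular markers were at 1.36, 0 and 0.800 in control TSs and 0.246, 0.486 and 1.74 with ALP, and the groups overlapped.

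Lymphocyte and blood leukocyte markers went the opposite way, at 2.99, 1.60 and 1.57 in control TSs and 5.38, 3.06 and 4.44 with ALP. CD2 gave the most with 312 UMIs, and 10 of 24 were listed at 0, among them THEMIS, CD4, MS4A1, S100A8 and S100A9. Those named at 0 were at 0 to 0.218 CPM in all other nuclei. CD2 was at 227, 133 and 131 CPM in control TSs and at 433, 263 and 395 CPM with ALP (1.10 ± 0.33), without overlap. By the leukocyte list, 98 nuclei held 2 or more UMIs. A different count of leukocyte UMIs, whose genes are not named here, gave 151 such nuclei. Leaving these 151 nuclei out, C1QA had a log2 fold change of 1.80 (adjusted p = 0.271, edgeR), LAPTM5 of 2.05 (adjusted p = 0.404) and CTSD of 1.66 (adjusted p = 0.626). By the same test TOMM40 had 1.63 (adjusted p = 0.395) and AIF1 had 1.35 (adjusted p = 0.554). None of 3010 features was called (176 at an unadjusted p under 0.05).

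Border macrophage markers were at 2.99, 1.53 and 1.38 in control TSs and 1.86, 0.753 and 1.27 with ALP, with F13A1 giving 121 UMIs. CD163 and SIGLEC1 were at 0, as in all other nuclei. Oligodendrocyte markers were at 10.2, 3.00 and 5.21 in control TSs and 6.36, 7.0 and 4.07 with ALP, with ST18 giving the most. MOG was at 0 by the rule. MBP and MOBP were also at 0, with 0.141 and 0 CPM in all other nuclei. Precursor markers were at 3.33 to 5.55 and astrocyte markers at 1.53 to 3.14 over all 6 libraries, without a split by group. LHFPL3 and SLC1A3 gave the most. PDGFRA and AQP4 were at 0 by the rule, and CSPG4 was at 0, with 0.237 CPM in all other nuclei. None of 4 haemoglobin genes was in the annotation.

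The ALP difference was then compared with that in oligodendrocyte and astrocyte nuclei of the same animals, with the library as a block. Against oligodendrocyte nuclei, 6 of 8829 features (0.068%) differed at an adjusted p under 0.05 (5.24% at an unadjusted p under 0.05), all of them lower in the microglia relative to the oligodendrocytes. BSG, the cell-surface protein basigin, had a log2 fold change of -0.33 in microglia and 1.75 in oligodendrocytes (difference -2.04; adjusted p = 0.0156, edgeR). PTMA, the chromatin-associated prothymosin alpha, had -1.08 and 0.93 (difference -1.81; adjusted p = 0.0479, edgeR). APOD, a lipocalin, C1ORF122, 1A01li1 and NPDC1-AS-1 were the others. Without Control 1, 62 features differed, and without ALP 1, 1 did.

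After thinning, 10 of 6279 features (0.159%) differed from oligodendrocyte nuclei, 6 of them higher in the microglia relative to the oligodendrocytes. Among these were TOMM40 (difference 1.27, adjusted p = 0.0122, edgeR) and LRMDA (difference 1.96). For LRMDA (adjusted p = 0.0488 for the difference, edgeR) the log2 fold change was 0.45 in microglia after thinning. It was -1.18 in oligodendrocyte nuclei in the sums of all UMIs (adjusted p = 0.141, edgeR). LRMDA was near the floor in that class, detected in 2.49% of oligodendrocyte nuclei, with 45 control and 14 ALP UMIs after thinning. In nuclei of at most 1500 genes 9 of 5188 (0.173%) differed, 8 of them higher in the microglia relative to the oligodendrocytes. CTSD was higher in ALP oligodendrocyte nuclei too (1.63; adjusted p = 0.0211, edgeR), with a difference of 0.34 between the classes. Against astrocyte nuclei, none of 7381 features differed at an adjusted p under 0.05 (edgeR; 356, or 4.82%, at an unadjusted p under 0.05), and after thinning 1 did (0.0193%), CNTN5, a neural adhesion gene.

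The nuclei were set beside the 54 microglia with a GPNMB UMI, as a description. The median depth was 1122 UMIs without and 1213 with GPNMB. MITF, the MiT-family factor of lysosomal genes, was at 205 CPM without and 590 with GPNMB, and ARHGAP24, a GTPase-activating protein, at 74.4 and 280. CARD8, LIMS1, CLEC6A, ZNF385B, SOAT1, which esterifies cholesterol for storage, and ACSL5, which activates fatty acids, were also higher with GPNMB. Higher without GPNMB were RELN, the extracellular matrix protein reelin (79.8 against 6.08 CPM), PLBD1 (91.9 against 12.2 CPM), FBXL6 (33.6 CPM, against 0 UMIs with GPNMB), MTUS1, SLC7A7, SETD7 and POLR1C. Of the nuclei with GPNMB, 40 of 54 came from ALP TSs, so the class and the group overlap. The 10 of them with more than 2500 genes gave 61.5% of their UMIs, and the direction per library was checked in ALP 2 and ALP 3 alone.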

How the data were processed

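Each of the 6 libraries came from 1 animal, and the authors deposited a table of raw UMI counts over 83605 features per library, without normalization. According to the submitters' notes, reads were processed with Cell Ranger 3.1.0, while the matrix headers name version 6.1.2; the genome came from TreeshrewDB, and its build was not given in the sources used here. The depth of each library is given in the report. No doublet caller was run, and the study's methods state no doublet step. Nuclei were selected from the counts, and raw counts were summed per library. Features were kept with filterByExpr (minimum count of 10), scaled with TMM and tested with edgeR 4.0.16 (R 4.3.3, limma 3.58.1) by the quasi-likelihood test, with Benjamini-Hochberg adjustment over all features but the rule's genes. The difference from oligodendrocyte and astrocyte nuclei was the class-by-group term with library as a block. Detection at 500 UMIs per nucleus was the exact expected share. Alternatives used DESeq2 1.42.0, upper-quartile scaling, no count filter, the study's filters, other thresholds of the rule, a replicate block, each library left out, thinning to 2000 UMIs per nucleus and, added after seeing the data, nuclei of at most 1500 genes, also without those of 500 genes or fewer, further thinning draws, libraries left out within these, and a term for Y-linked transcripts. The fits were checked on simulated counts.

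Named genes were the called ones, or where fewer than 12 plain symbols were called in a direction those of lowest unadjusted p, the 3 most abundant of each list, the rule's genes, and the largest folds over other nuclei and against nuclei with GPNMB. Other list genes were named for an unadjusted p under 0.05, after their values were seen. The nuclei and all lists were chosen with earlier results of these data known. P-values measure the spread between animals. A few genes that this rule names are not reported here.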

Additional observations from a re-analysis of the deposited data

Results flagged for a closer look

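For 6 features the difference between ALP and control TSs differed between microglia without GPNMB transcripts and oligodendrocyte nuclei of the same animals, by the interaction term of edgeR's quasi-likelihood test with Benjamini-Hochberg adjustment. The microglial minus the oligodendrocyte log2 fold change was -2.21 for NPDC1-AS-1 (adjusted p = 0.00141), -2.04 for BSG (adjusted p = 0.0156), -2.09 for 1A01li1 (adjusted p = 0.0182), -1.90 for C1ORF122 (adjusted p = 0.0254), -3.07 for APOD (adjusted p = 0.0386) and -1.81 for PTMA (adjusted p = 0.0479). In oligodendrocyte nuclei alone NPDC1-AS-1 was 2.39, BSG 1.75, 1A01li1 2.26 and C1ORF122 1.51 higher in ALP TSs on the log2 scale. Over 15 alternatives the difference ran from -2.67 to -0.87 for NPDC1-AS-1, from -2.36 to -1.34 for BSG, from -2.40 to -1.66 for 1A01li1, from -2.47 to -1.28 for C1ORF122, from -3.97 to -1.27 for APOD and from -2.04 to -1.08 for PTMA. In nuclei of at most 1500 genes none of the 6 passed the adjusted threshold, and NPDC1-AS-1 was itself called higher in ALP microglia (1.29). They passed the adjusted threshold in 11 of these for NPDC1-AS-1, 8 for BSG, 7 for 1A01li1, 7 for C1ORF122, 5 for APOD and 3 for PTMA.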

How the results depend on the processing

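The count of features called between ALP and control TSs was 0 in the sums of all UMIs and stayed 0 with upper-quartile scaling, the study's filters, a microglial sum of at least 2 or of at least 5 UMIs, without nuclei of other-class or leukocyte UMIs, and with a term for Y-linked transcripts. It was 12 with DESeq2 (8 higher), 12 in nuclei of at most 1500 genes (9 higher), 7 in those with more than 500 and up to 1500 genes, 82 with no filter on low counts (19 higher), and 8, 7 and 5 in the thinning draws. Leaving out 1 library gave 0 to 247, with 247 without Control 1 (85 higher). The differences from oligodendrocyte nuclei went from 6 to 2 and 0 with microglial sums of at least 2 and 5, and to 16 with no filter. They were 0 with the study's filters, 10 after thinning (6 higher) and 9 in nuclei of at most 1500 genes (8 higher). With upper-quartile scaling 1 differed, without nuclei of leukocyte UMIs 0, and with a library left out 1 to 62. Those from astrocyte nuclei went from 0 to 4 with no filter, 1 after thinning, 1 without nuclei of leukocyte UMIs and 0 to 9 with a library left out. The share of nuclei differed by -0.898 to 0.285 points with a library left out. Of 50 features between ALP and control TSs, 44 kept their direction in every alternative. CDH20 was at 0.023 with the study's filters. NPDC1-AS-1, at -0.02, was at 1.29 in nuclei of at most 1500 genes, 1.21 in those with more than 500 and up to 1500 genes, 0.39 and 1.29 with sums of at least 2 and 5, 0.17 with the replicate block, 0.29 with the Y-linked term, 0.89 with the study's filters, 0.50, 0.50 and 0.48 in the thinning draws, 0.021 with upper-quartile scaling and 1.47 without nuclei of leukocyte UMIs. BLNK was at 0.14 with the replicate block and 0.10 with the Y-linked term. With a library left out, also after thinning or in nuclei of at most 1500 genes, ERBB4 was at -1.72 to 0.093, PTPRD at -1.31 to 0.062, CDH20 at -1.28 to 0.68, NPDC1-AS-1 at -0.42 to 1.51, BLNK at -0.74 to 0.61 and INPP5D at -0.081 to 1.07. The cause of these changes was not tested.

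The replicate numbers did not pair the animals: the deviations of same-numbered libraries correlated at 0.130, -0.0098 and 0.0688, and not every library correlated best with its own number. The replicate block gave 1 call, LY6Hli1, and a difference of -0.352 points in the share. The precision was limited by 3 animals per group. Control 2 held 24 nuclei, and its part in the precision was not tested. Without Control 2 the count of calls between ALP and control TSs in the sums of all UMIs stayed 0.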

Other observations

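Y-linked transcripts, summed over all nuclei, were at 60.9 CPM in Control 1, 75.5 CPM in Control 2 and 75.8 CPM in ALP 2, and at 0.558 CPM in Control 3, 0.249 CPM in ALP 1 and 0.0522 CPM in ALP 3. With a term for this split, edgeR called no feature between ALP and control TSs.

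The non-coding feature LINC-FRMD8-1 alone took 11.3, 21.4 and 15.2% of the UMIs of microglia without GPNMB transcripts in Control 1, 2 and 3 and 19.6, 17.8 and 23.4% in ALP 1, 2 and 3.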
